A study of Mus musculus with 6 samples.

Results

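The genes described here are 43 markers and regulators of the blood lineages other than the red cell: 18 lymphoid, 14 myeloid and 11 megakaryocyte genes, out of 21887 protein-coding mouse genes of RefSeq. They were chosen by name, with earlier results of these data known, and some had been named there because they held peaks. The share of members that held a peak can therefore not be read as more or less than that of other genes, and the shares of all genes are given beside it for scale. A member counted as holding a peak when the region overlapped the gene or the 10 kb on either side.

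Methyl-CpG immunoprecipitation followed by sequencing, in which a methyl-CpG binding protein pulls down DNA that is methylated and dense in CpG, was applied to I/11 cells, a mouse erythroblast line from fetal liver of p53-deficient embryos (day 12.5). All groups carried that deficiency, were infected with lentivirus and were selected with puromycin. Short hairpin RNA 133 or 14 against Plcg1, the gene of the signalling enzyme phospholipase C gamma 1, was used. Cells were taken at 0 h of differentiation, 72 h after infection in medium with Epo, SCF and dexamethasone, or at 24 h, 96 h after infection, in differentiation medium with 10 U/ml Epo and transferrin. Each hairpin and time is 1 library, so no difference below has a replicate check. The 2 libraries with a scrambled hairpin, at 0 h and 24 h, were not analysed here. The 4 lists held 3900 and 3437 peaks at 0 h (hairpins 133 and 14) and 2960 and 2666 at 24 h. Read depth is unknown. The lists carry no score. No source used here tells whether a peak marks a gain or a loss of methylated DNA against the scrambled control, so a peak below has no direction. Plcg1 held 0 peaks in every list. The assay does not measure RNA, so neither the knockdown nor the cell type could be checked against transcripts.

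Blood lineages part from common progenitors under the control of competing transcription factors. PU.1 (Spi1) and the C/EBP factors direct the granulocyte and macrophage branches, Ebf1 the B cell branch, and Bcl11b, Gata3 and Tcf7 the T cell branch. Megakaryocytes, the source of platelets, share a progenitor with erythroblasts. DNA methylation at promoters and enhancers of the genes of a lineage not taken is a known companion of their silence, and CpG-dense promoters are mostly free of it.

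Sequence was at hand for promoter windows and not for the genome, so it is shown where it bears on a peak. Of the 37 regions at members, 2 overlapped a promoter window of another gene, and both are shown first. In each, capitals mark the bases inside the listed peak. The first belongs to the transcript A530013C23Rik, whose window holds the whole peak that lay 0.539 kb beyond the end of Cebpb with both hairpins at 0 h (GRCm38.p6, chr2:167690927-167691176, plus strand). The second belongs to P3h3, the nearest gene of the peak counted for Cd4 with hairpin 14 at 24 h (chr6:124857718-124857967, minus strand). Each sequence is the 250 bases before the start, 5′ to 3′, from RefSeq.
A530013C23Rik: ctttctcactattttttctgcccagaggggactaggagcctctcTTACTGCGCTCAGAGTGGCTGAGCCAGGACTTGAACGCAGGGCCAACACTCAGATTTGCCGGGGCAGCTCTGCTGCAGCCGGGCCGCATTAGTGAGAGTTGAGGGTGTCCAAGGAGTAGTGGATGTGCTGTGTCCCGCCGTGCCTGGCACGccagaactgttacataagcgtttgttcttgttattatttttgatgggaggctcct
P3h3: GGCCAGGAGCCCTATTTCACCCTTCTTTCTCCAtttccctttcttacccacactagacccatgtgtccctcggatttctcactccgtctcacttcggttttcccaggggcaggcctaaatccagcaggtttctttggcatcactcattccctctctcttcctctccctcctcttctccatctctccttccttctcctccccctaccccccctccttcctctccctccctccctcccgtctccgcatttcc

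The peak beyond Cebpb held 8 CpG in 151 bases. In the whole series, 171 peaks lay fully inside a promoter window. Their median was 12 CpG (quartiles 8 and 15, lowest 5), against a median of 3 (quartiles 1 and 10) in the middle 151 bases of all 32851 promoter windows. The listed peaks were thus CpG-dense where they could be read, and the Cebpb peak was at the lower quartile. The overlap with the P3h3 promoter covered 33 bases with 0 CpG.

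For contrast, the next sequences are the 250 bases before the start of 4 members that held a peak nearby but not there, with each CG in capitals. Cebpb (chr2:167688665-167688914, plus strand) has 41 CpG, and Gata3 (chr2:9878601-9878850, minus strand) has 19. Pf4 (chr5:90772185-90772434, plus strand) has 1, and Gp5 (chr16:30310782-30311031, minus strand) has 0.
Cebpb: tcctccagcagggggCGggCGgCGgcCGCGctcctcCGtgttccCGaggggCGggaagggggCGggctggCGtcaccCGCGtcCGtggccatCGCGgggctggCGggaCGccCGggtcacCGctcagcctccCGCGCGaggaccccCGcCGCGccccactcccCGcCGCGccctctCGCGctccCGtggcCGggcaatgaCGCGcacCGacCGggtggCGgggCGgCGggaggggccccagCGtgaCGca
Gata3: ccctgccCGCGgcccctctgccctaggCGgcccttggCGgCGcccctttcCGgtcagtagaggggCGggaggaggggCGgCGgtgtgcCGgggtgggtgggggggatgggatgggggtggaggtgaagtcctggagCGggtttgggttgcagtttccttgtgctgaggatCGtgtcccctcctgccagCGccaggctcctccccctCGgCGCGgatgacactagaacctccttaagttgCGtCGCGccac
Pf4: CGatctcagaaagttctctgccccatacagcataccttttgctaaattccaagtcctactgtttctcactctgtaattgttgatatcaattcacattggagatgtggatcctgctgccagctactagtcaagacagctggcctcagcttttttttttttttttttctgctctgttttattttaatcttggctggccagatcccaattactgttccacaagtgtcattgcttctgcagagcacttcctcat
Gp5: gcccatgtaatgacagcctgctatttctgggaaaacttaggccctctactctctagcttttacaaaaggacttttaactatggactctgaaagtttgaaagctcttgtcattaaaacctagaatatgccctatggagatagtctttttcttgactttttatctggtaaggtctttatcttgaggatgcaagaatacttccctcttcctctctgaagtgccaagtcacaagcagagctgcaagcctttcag

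Of the 43 members, 24 held a peak in at least 1 list (55.8%; all protein-coding genes 26.0%). With hairpin 133 at 0 h, 19 members held a peak (44.2%; all genes 12.7%). The list of hairpin 14 at 0 h had 9 members (20.9%; all genes 11.0%). At 24 h, 10 members held a peak with hairpin 133 (23.3%; all genes 10.5%) and 8 with hairpin 14 (18.6%; all genes 9.72%). The list of hairpin 133 at 0 h stood highest, and all 9 members of the hairpin 14 list at 0 h were among its 19. Member windows took 19 of 3900 peaks with hairpin 133 at 0 h, or 0.487% (exact Clopper-Pearson 95% interval 0.294 to 0.760%), and 12 of 3437 with hairpin 14, or 0.349% (0.181 to 0.609%). At 24 h the shares were 0.405% (0.210 to 0.707%) and 0.375% (0.180 to 0.689%). The intervals cover counting error only. They overlap, which is not a test, and a difference in share between lists was not tested.

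**Figure D1:**
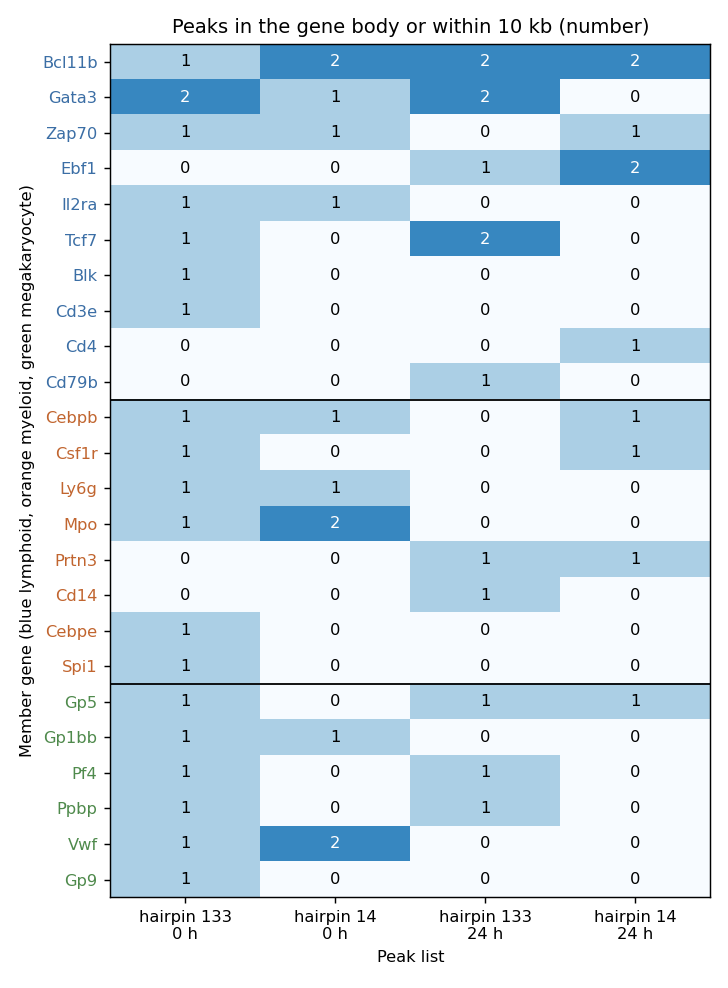
Number of peaks (cell values) in the body or within 10 kb of each of the 24 members with a peak, for the 4 lists, with lymphoid genes in blue, myeloid in orange and megakaryocyte in green. Bcl11b is the only row without a 0, and the column of hairpin 133 at 0 h has the most filled cells (19).

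By lineage, the counts at 0 h with hairpin 133 were 7 of 18 lymphoid, 6 of 14 myeloid and 6 of 11 megakaryocyte genes. With hairpin 14 at 0 h they were 4, 3 and 2. At 24 h they were 5, 2 and 3 with hairpin 133 and 4, 3 and 1 with hairpin 14. By this rule lymphoid counts ran from 4 to 7 over the lists, myeloid from 2 to 6 and megakaryocyte from 1 to 6. Pf4 and Ppbp count the same peaks, and with 1 member per locus the megakaryocyte counts ran from 1 to 5. With the nearest gene only, the counts ran from 3 to 7, 1 to 5 and 1 to 5 (lymphoid, myeloid, megakaryocyte). The megakaryocyte counts thus had the widest range by the first rule and tied with other lineages by the others. The lists hold 18, 14 and 11 genes, and the difference in range was not tested. The lineages were close in the share with a peak in any list: 10 of 18 (55.6%), 8 of 14 (57.1%) and 6 of 11 (54.5%). Since some members were named because they held peaks, this closeness cannot be read as a trait of the lineages. The genes of the lineages differ in size: the median gene body is 23.7 kb for lymphoid, 4.30 kb for myeloid and 4.88 kb for megakaryocyte members, against 17.2 kb for all genes.

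**Figure D2:**
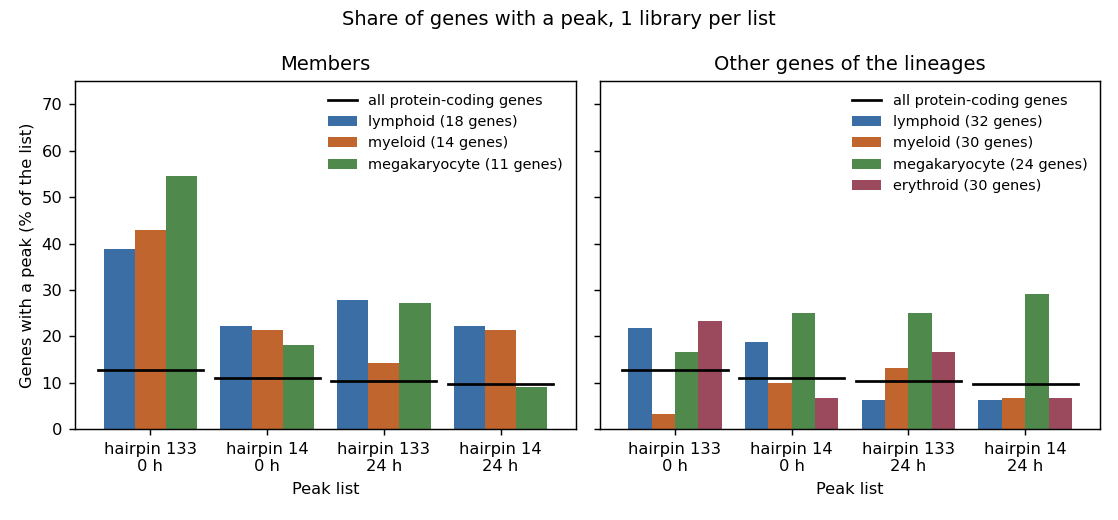
Percent of genes with a peak (bars, y axis) in each of the 4 lists (x axis), for the members by lineage at left and for other genes of the lineages, with an erythroid list, at right; the black lines are all protein-coding genes. Each bar is 1 library, without an error. The highest bar is the megakaryocyte members with hairpin 133 at 0 h (54.5%).

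Among T cell genes, Bcl11b, a zinc finger factor of T cell commitment, was the member with most peaks and the only one with a peak in all 4 lists (2.07% of all genes had this). It is 93.7 kb long on chromosome 12 (107910403 to 108004145) and held 1 and 2 peaks at 0 h (hairpins 133 and 14) and 2 and 2 at 24 h. These 7 peaks formed 6 regions, and the only region found in more than 1 list was at 107951035 to 107951185, with both hairpins at 0 h. The peaks at 24 h lay at 107904354 and 107930401 with hairpin 133 and at 107927052 and 107934773 with hairpin 14 (start positions). The first of these lay 5.9 kb outside the gene. Each list at 24 h thus marked other stretches in or near the gene. Of the 6 regions, 5 lay in the body, the nearest of them 52.3 kb past the start site.

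Gata3, a zinc finger factor of T helper cells and early T cell development, held 2, 1, 2 and 0 peaks (hairpins 133 and 14 at 0 h, then at 24 h, an order kept below). A region at chromosome 2, 9882838 to 9882988, was listed with both hairpins at 0 h. A second, at 9882476 to 9882626, was listed with hairpin 133 at 0 h and, 2 bp away, at 24 h. They lay at -4.31 and -3.95 kb from the start site that the promoter table gives (negative is upstream), and inside the gene span, which reaches beyond that start. The nearest peak of hairpin 14 at 24 h lay 1450 kb away, so Gata3 was marked in 3 lists and far from any peak in the other.

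Zap70, the kinase that the T cell receptor recruits, held 1, 1, 0 and 1 peaks, all in a region 2.73 kb beyond its end on chromosome 1 (36785552 to 36785702 at 0 h). The coordinates were identical with both hairpins at 0 h and 9 bp off at 24 h with hairpin 14. Il2ra, the alpha chain of an interleukin receptor of activated T cells, held 1 peak with each hairpin at 0 h and 0 at 24 h, 3.59 and 3.58 kb beyond its end and 6 bp apart. Tcf7, a factor of early T cells, held 1, 0, 2 and 0 peaks, all with hairpin 133. Its 0 h peak lay at -2.40 kb from a start site, and the 24 h peaks lay at -0.978 and 28.7 kb, so the times had no region in common. Cd3e, a subunit of the T cell receptor complex, held 1 peak, with hairpin 133 at 0 h, 8.95 kb from the gene. Cd4, the co-receptor of helper T cells, held 1, with hairpin 14 at 24 h, at 6.61 kb and nearer to P3h3. Cd8a, the co-receptor of cytotoxic T cells, Lck, a kinase of the T cell receptor, and Lef1, a factor related to Tcf7, held 0 peaks.

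Among B cell genes, Ebf1, a factor of B cell specification that spans 390 kb on chromosome 11, held 0 and 0 peaks at 0 h and 1 and 2 at 24 h. A region at 44686485 to 44686635 (hairpin 133) was found 18 bp off with hairpin 14, 66.3 kb into the gene, and a second peak of hairpin 14 lay 643 bp from the gene's far end. Ebf1 was the only lymphoid member with a region of both hairpins at 24 h. Cd79b, a signalling subunit of the B cell receptor, held 1 peak, with hairpin 133 at 24 h, across an end of the gene. Blk, a kinase of B cells, held 1 in its body with hairpin 133 at 0 h. Cd79a, the partner of Cd79b, Ms4a1, a surface protein of B cells, and Rag1, Rag2 and Il7r, genes of receptor rearrangement and of early lymphocyte growth, held 0 peaks. The nearest peak to Cd79a lay 47.0 kb away in each of the 4 lists.

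Among the myeloid factors, Cebpb, a C/EBP factor of macrophages and emergency granulopoiesis, held 1, 1, 0 and 1 peaks. The 0 h peaks were the identical region shown above (chromosome 2, 167690971 to 167691121), and the 24 h peak of hairpin 14 lay 8.40 kb from the gene. Spi1, the gene of PU.1, held 1 peak in its body, with hairpin 133 at 0 h (chromosome 2, 91095852 to 91096002). Cebpe, a factor of late granulocyte maturation, held 1, with hairpin 133 at 0 h, 9.69 kb away and nearer to Slc7a8. Cebpa and Irf8, factors of granulocyte and monocyte fate, held 0.

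Of the receptors and surface proteins, Csf1r, the receptor of macrophage colony-stimulating factor, held 1 peak with hairpin 133 at 0 h and 1 with hairpin 14 at 24 h, both in its body on chromosome 18 but not overlapping (61124174 to 61124324 and 61125714 to 61125864). Ly6g, a surface protein of neutrophils, held 1 peak with each hairpin at 0 h and 0 at 24 h, 6.68 kb from the gene and 7 bp apart. Cd14, a co-receptor for bacterial lipopolysaccharide, held 1 in its 1.75 kb body with hairpin 133 at 24 h. Csf3r, the receptor of granulocyte colony-stimulating factor, and Itgam, an integrin of myeloid cells, held 0.

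Of the granule proteins, Mpo, the peroxidase of neutrophil granules, held 1 and 2 peaks at 0 h and 0 at 24 h, all in its body on chromosome 11. The region at 87796187 to 87796337 with hairpin 133 was found 11 bp off with hairpin 14. The nearest peak to Mpo at 24 h lay 12.9 kb away with both hairpins, just outside the limit. Prtn3, a serine protease of the same granules, showed the reverse order of times, with 0 and 0 peaks at 0 h and 1 and 1 at 24 h. That region (chromosome 10, 79872411 to 79872561) lay 7.11 kb from Prtn3 in the body of Plppr3. The same region lay 13.8 kb from Elane, the neutrophil elastase gene, which held 0 peaks by the rule, as did Lyz2, a lysozyme gene.

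At the megakaryocyte genes, all 6 regions were inside a member's body. For lymphoid members this held for 12 of 20 regions and for myeloid members for 6 of 11. Of the 7157 regions in the windows of all protein-coding genes, 6012 (84.0%) lay in a gene body, there counting the body of any gene. The megakaryocyte count is thus near the share of all genes, and the difference between lineages was not tested. Gp5, a glycoprotein of the platelet receptor for von Willebrand factor, held 1, 0, 1 and 1 peaks, all in the same region of its 3.10 kb body on chromosome 16. It lay at 30308911 to 30309061 with both hairpins at 24 h and 37 bp off with hairpin 133 at 0 h. Gp1bb, another subunit of that receptor, held 1 peak with each hairpin at 0 h, at identical coordinates (chromosome 16, 18620774 to 18620924), and 0 at 24 h. Gp9, also a subunit, held 1 peak, with hairpin 133 at 0 h. The remaining subunit, Gp1ba, held 0, with the nearest peak 15.3 kb away.

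Vwf, the gene of von Willebrand factor, held 1 and 2 peaks at 0 h and 0 at 24 h. The region with both hairpins had identical coordinates (chromosome 6, 125603422 to 125603572), and the second peak of hairpin 14 began at 125603815. Pf4, a chemokine of platelet granules, held 1, 0, 1 and 0 peaks. They lay at chromosome 5, 90772563 to 90772713 at 0 h and 26 bp away at 24 h, both with hairpin 133. Their centres were 203 and 177 bp past the start site, the nearest to a start site of any member peak with a known start. Ppbp, the neighbouring chemokine gene, counts the same peaks 2.50 and 2.47 kb from its body, so Pf4 and Ppbp are 1 locus with 1 region. Itga2b and Itgb3, the chains of the fibrinogen receptor, Selp, an adhesion protein of platelet granules, and Fli1, a factor of megakaryocytes, held 0 peaks.

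The times differed in which members they marked. At 0 h only, 10 members held a peak (23.3%; all genes 10.3%): Blk, Cd3e, Il2ra, Cebpe, Ly6g, Mpo, Spi1, Gp1bb, Gp9 and Vwf. At 24 h only, 5 did (11.6%; all genes 8.14%): Cd4, Cd79b, Ebf1, Cd14 and Prtn3. At both times, 9 did (20.9%; all genes 7.57%). The megakaryocyte members were marked at 0 h only or at both times (3 and 3), and 0 of 11 at 24 h only. Of the 3 at both times, Pf4 and Ppbp count the same peaks. The 24 other megakaryocyte genes, described below, went the other way, with 0 at 0 h only, 3 at 24 h only (12.5%) and 6 at both times. These are few genes in chosen lists, and the difference between the lists was not tested. Of the 9 members marked at both times, 5 had a region listed at both times, namely Zap70, Gata3, Gp5, Pf4 and Ppbp (all genes 4.07% by this rule). Bcl11b, Tcf7, Cebpb and Csf1r had other regions at each time. Over all genes marked at both times, 891 of 1657 (53.8%) had a region of both times, about as for the members (55.6%).

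The hairpins also differed. Both hairpins marked 13 members (30.2%; all genes 9.78%), hairpin 133 alone marked 10 (23.3%; all genes 9.27%) and hairpin 14 alone marked 1, Cd4 (2.33%; all genes 6.95%). The 10 were Blk, Cd3e, Cd79b, Tcf7, Cd14, Cebpe, Spi1, Gp9, Pf4 and Ppbp. The lists of hairpin 133 were longer at both times. The part of list length in this difference was not tested. A peak in 3 or 4 lists was found at 5 members, Bcl11b, Gata3, Zap70, Cebpb and Gp5 (11.6%; all genes 4.79%).

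Regions listed with both hairpins touched 9 members at 0 h (20.9%; all genes 4.61%): Bcl11b, Gata3, Il2ra, Zap70, Cebpb, Ly6g, Mpo, Gp1bb and Vwf. At 24 h they touched 3 (6.98%; all genes 3.38%): Ebf1, Prtn3 and Gp5. The sets had 0 members in common (all genes 1.49% in both). With 50 kb either side, a rule that can only add members, Cd79a, Gp1ba and Mpo were in both. The share of all genes under that rule is not given here. Of the 9 pairs at 0 h, 6 had identical start and end, as had 2 of the 3 at 24 h, and the others were 6 to 18 bp apart. In the whole series 79.4% and 92.8% of such pairs were identical. Between times, only 2.32 to 3.33% of overlapping pairs were identical, with 2.75% within hairpin 133 and 2.71% within hairpin 14. How the lists of a time were called is not known. A region of both hairpins can therefore not be read as agreement of 2 separately called libraries. Without the identical peaks, Il2ra, Ly6g and Mpo were left at 0 h and Ebf1 at 24 h. A region of all 4 lists touched 0 of the 43 members (all genes 1.28%). The 37 member regions came from 1 list in 23 cases, from 2 in 12 and from 3 in 2, at Zap70 and Gp5. In the series, 79.2% of the 10085 regions came from 1 list, 15.4% from 2, 3.01% from 3 and 2.36% from 4.

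For 32 members the RefSeq promoter table holds 42 windows, each from 250 bases before to 50 after a start, and 0 of the 42 held a peak in any list. Over all windows 479 of 32851 did (1.46%), so 0 of 42 is near the share of all windows. A count of 0 allows up to 0.0769, 0.0873, 0.101 and 0.113% of the peaks of a list (3 counts of its total). At members with a start in the table, 27 regions were measured from the nearest start. Of these, 8 lay upstream, 2 lay within 1 kb, at Pf4 and Tcf7, and the median distance was 8.36 kb.

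**Figure D3:**
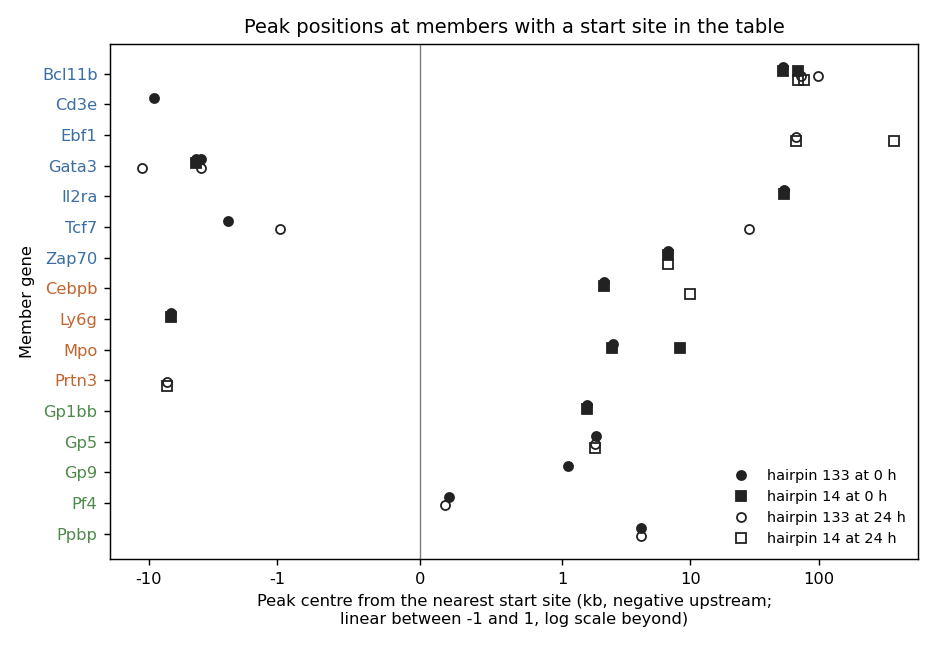
Distance of each peak centre from the nearest start site in kb (x axis, negative upstream, linear between -1 and 1 and logarithmic beyond) for the 16 members with a peak and a start in the table, with circles for hairpin 133, squares for hairpin 14, filled at 0 h and open at 24 h. Pf4 and Tcf7 have the only points within 1 kb of a start, and peaks of Bcl11b and Ebf1 lie over 50 kb into the gene.

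The promoter windows of the members held from 0 CpG at Gp5 to 50 at Cebpb, with a median of 6 against 7 for all windows. Lymphoid members had a median of 8, myeloid 6 and megakaryocyte 3. Windows of members with a peak nearby had a median of 8 and those of members without had 6, and both sets spread widely (0 to 50 and 1 to 38). Short motifs were counted on both strands. AGGAAG, the core of sites for ETS factors such as PU.1 and Fli1, was in 26 of 42 member windows (61.9%) and in 35.4% of all windows. It was in 7 of 8 megakaryocyte windows, 8 of 12 myeloid and 11 of 22 lymphoid ones. Overlapping windows of the same gene, as at Ly6g, were each counted. The share was the same (61.9%) in windows of members with a peak nearby and of members without. AGATAA, a form of the GATA site, was in 3 (7.14%; all windows 11.2%), at Gp5, Pf4 and a start of Lef1. TGTGGT, the core of the RUNX site, was in 7 (16.7%; all windows 16.8%). A match shows only that the letters are present.

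**Figure D4:**
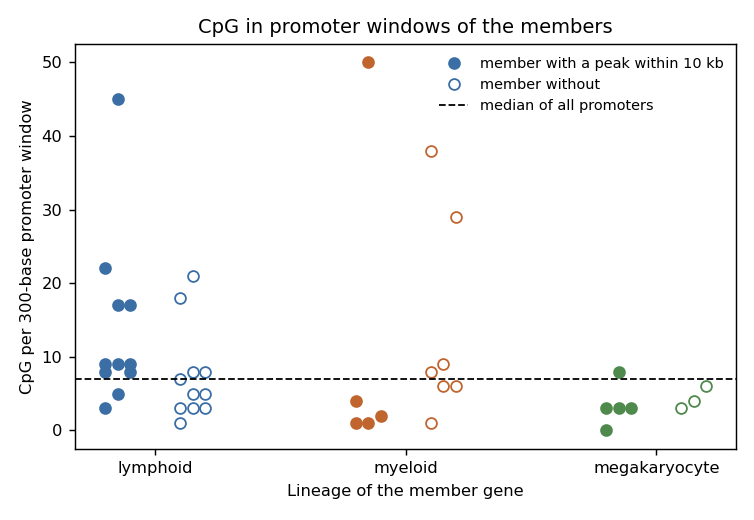
CpG count in the 300-base promoter windows (y axis) of members by lineage (x axis), with 1 point per window, filled where the member held a peak within 10 kb and open where it did not. The dashed line is the median of all windows (7). The megakaryocyte windows hold 0 to 8 CpG, and the highest points are Cebpb (50) and Tcf7 (45).

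Other genes of the lineages, from a list written with the earlier results known, were counted in the same way, and the shares of all genes given above apply to them too. Of 32 lymphoid genes, 7, 6, 2 and 2 held a peak in the 4 lists, and 12 held 1 in any list (37.5%; all genes 26.0%). At 0 h only, 8 of the 32 were marked (all genes 10.3%), including Pax5 and Cd40, genes of B cell identity and activation, each with a region of both hairpins. At 24 h only, 3 were marked (9.38%; all genes 8.14%). Of 30 myeloid genes, 1, 3, 4 and 2 held a peak and 5 in any list (16.7%), with Irf4, a factor of macrophages and lymphocytes, in all 4 lists and Mmp9, a protease of neutrophil granules, in 3. Irf4 had a region common to all 4 lists. Of 24 megakaryocyte genes, 4, 6, 6 and 7 held a peak and 9 in any list (37.5%). Cd9, a platelet tetraspanin, Itga2, a chain of the collagen receptor, and Thpo, the gene of thrombopoietin, had peaks in all 4 lists, and Meis1, a homeobox factor, in 3. Cd9 and Itga2 had a region of all 4 lists, which no member had. Of 30 erythroid genes, 7, 2, 5 and 2 held a peak and 8 in any list (26.7%), near the 26.0% of all genes. Hairpin 133 alone marked 5 of them (16.7%; all genes 9.27%) and hairpin 14 alone 0 (all genes 6.95%). Dmtn, a protein of the red cell membrane skeleton, was in all 4 lists and Slc14a1, a urea transporter and blood group gene, in 3. The list of hairpin 133 at 0 h was thus the highest for the megakaryocyte members (6) and the lowest for the other megakaryocyte genes (4), and that of hairpin 14 at 24 h the reverse (1 and 7). This difference was not tested.

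The 19 members with 0 peaks were Cd8a, Lck, Lef1, Rag1, Rag2, Il7r, Cd79a, Ms4a1, Cebpa, Irf8, Csf3r, Itgam, Elane, Lyz2, Gp1ba, Itga2b, Itgb3, Selp and Fli1. Their bodies had a median length of 16.6 kb, against 10.8 kb for those with a peak. Their nearest peak in any list lay 11.1 kb (Irf8) to 734 kb (Fli1) away, with a median of 84.3 kb. Just inside the 10 kb limit were Cebpe (9.69 kb) and Cd3e (8.95 kb), and just outside it Irf8 (11.1 kb, both hairpins at 0 h) and Elane (13.8 kb, both hairpins at 24 h).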

How the data were processed

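Peak lists of 4 libraries, 1 per hairpin and time, were used. The authors named HOMER, BWA, SAMtools and Picard, with mm10 as build, per the submitters' processing notes. Versions, caller settings, control and threshold are not given in the sources used here. The lists deposited by the authors hold start and end in base pairs, without score or count. Widths were 151 bp but for 1 peak of 120 bp. Starts were read as 0-based and are printed 1-based. Genes, promoter windows and sequences came from RefSeq tables of GRCm38.p6, the patched form of mm10. All 43 symbols matched a protein-coding gene, and 32 a promoter entry. Peaks overlapping a gene body extended by 10 kb were counted, and overlap of at least 1 bp made peaks shared. The members, lists and motifs were chosen with earlier results of these data known. No test was run, since each group is 1 library and genes are not replicates. Every member with a peak is named. Of the other genes, those in 3 or 4 lists are named, and Pax5 and Cd40 were added after their values were seen. For sequences, members with a peak in their own promoter window were to be shown. There were 0, so windows of 2 neighbouring genes and of 4 members were shown instead. Windows, overlap and attribution were varied. Overlap counting was tested on simulated data. Python 3.11.15, pandas 2.3.3 and scipy 1.17.1 were used.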

Additional observations from a re-analysis of the deposited data

Results flagged for a closer look

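Csf1r, the receptor of macrophage colony-stimulating factor, was the only member whose number of peaks changed in opposite directions with the hairpins. From 0 h to 24 h it went from 1 to 0 with hairpin 133 (a change of -1) and from 0 to 1 with hairpin 14 (a change of 1). The peaks lay in different regions, each from 1 list, as did 79.2% of the regions in the series. The share of all genes with such a change is not given here. The difference was not tested, and each value is 1 library.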

How the results depend on the processing

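With the gene body alone, 11, 5 and 4 members held a peak with hairpin 133 at 0 h, hairpin 14 at 0 h and hairpin 14 at 24 h, in place of 19, 9 and 8, and 5 in place of 9 had a region of both hairpins at 0 h. With 50 kb either side, hairpin 14 marked 16 at 0 h and 15 at 24 h, and hairpin 133 marked 19 at 24 h in place of 10. Shared regions then touched 9 at 24 h in place of 3, and 2 members (Cd79a and Gp1ba) had a region of all 4 lists. The shares of peaks in member windows rose to 0.611% (hairpin 14 at 0 h), 0.743% and 0.713% (hairpins 133 and 14 at 24 h). A wider window can only raise such values and the gene body alone can only lower them, whatever the genes. The shares of all genes under these rules are not given here. Without peaks identical in both lists of a time, hairpin 14 marked 5 at 0 h, and shared regions touched 3 members at 0 h and 1 at 24 h, fewer by construction. Overlap of at least 50%, identical coordinates, peak centres, the nearest gene only, and 1 member per locus (40 loci) left these totals within 1.5 times. Of 72 counts by lineage and list, 54 stayed within 1.5 times. No paired analysis was possible because the counts come from no test. Times were set side by side within each hairpin as counts. Leaving out a replicate was likewise not possible, and a stricter peak threshold needs scores. Read depth is unknown.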
